A study of Mus musculus with 4 samples.

Results

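The 30 genes described here encode enzymes that build cholesterol, the proteins that switch the transcription factor SREBP2 on and off, and proteins that carry or store sterols inside the cell. They were listed by name, without a threshold on any value, and all 30 were found among the 52550 genes of the table. They fall into 5 groups: 8 genes of the mevalonate steps, 3 of the squalene and lanosterol steps, 8 of the steps that turn lanosterol into cholesterol, 6 of SREBP2 control, and 5 of sterol transport and storage. The list does not hold every enzyme of the pathway.

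RNA was sequenced from mouse bone marrow-derived macrophages (BMDMs), cells grown from marrow for 7 days with 20 ng/mL of the macrophage growth factor M-CSF. The 4 groups were OGT-KO cells after 24 h of IL-4 at 20 ng/mL, OGT-KO cells at 0 h, WT cells after 24 h of IL-4, and WT cells at 0 h. OGT is the transferase that places single O-linked N-acetylglucosamine sugars on proteins of the nucleus and cytosol, and IL-4 is the cytokine used to drive the alternative (M2) macrophage state. Each group held 1 library, so no difference below has an error between cultures or a test, and counts describe these libraries alone. The deleted part of the Ogt gene, the way it was deleted, and the strain, age and number of the mice appear nowhere in the labels. The 0 h samples, whose treatment label also names IL-4, were taken as unstimulated because of their time. The labels name no unstimulated culture of 24 h, so IL-4 and time in culture cannot be told apart.

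Levels are FPKM, fragments scaled to transcript length and library size, as deposited. Column totals lay between 338704 and 353093, and 10920 to 11169 genes reached 1 FPKM in a library. By an estimate from the values, 1 FPKM stood for 40.2 to 43.7 fragments of a 2 kb transcript. Ogt was at 14.45 FPKM in OGT-KO at 24 h and 14.19 at 0 h, against 29.78 in WT at 24 h and 27.39 at 0 h. The OGT-KO libraries thus kept 48.5% of the WT level at 24 h and 51.8% at 0 h, and residual undeleted cells and a transcript that lacks only part of the gene cannot be told apart. All 10 macrophage markers reached 1 FPKM. Their summed level was 6520 FPKM in OGT-KO at 24 h and 15800 at 0 h, and 6500 in WT at 24 h and 18800 at 0 h.

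Cells make cholesterol from acetyl-CoA by way of mevalonate, squalene and lanosterol, and they also take it up in lipoproteins, which macrophages add to by engulfing other cells. When membranes of the endoplasmic reticulum are low in cholesterol, SCAP carries the precursor of SREBP2 to the Golgi, where a pair of proteases releases the part that enters the nucleus and switches on genes of synthesis and uptake. INSIG proteins hold SCAP back when sterols are plentiful. NF-Y and Sp1 are known partners of SREBPs at many of these promoters.

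Promoter sequence is shown first, because these genes are known as a set with shared promoter elements. RefSeq windows of 300 bases (250 before to 50 after the transcription start, GRCm38.p6) were available for 25 of the 30 genes, in 31 windows, since some genes have more than 1 start. Fdft1, Fdps, Sqle, Stard4 and Npc1 had no entry. On both strands, CCAAT, the NF-Y box, was found in 21 of the 25 genes (84.0%), against 43.0% of the 8372 genes with a window that reached 1 FPKM in any library and 41.1% of all 27025 genes. GGGCGG, the Sp1 box, was found in 22 (88.0%), against 68.7% and 38.2% of the same backgrounds. CACGTG, the E-box, was found in 5 (Dhcr7, Hsd17b7, Insig1, Sc5d and Scap; 20.0%), against 12.3% and 8.09%. TCACNCCAC, the core of a sterol regulatory element, was found in 1 (Hmgcs1; 4.0%), against 1.37% and 1.44%. Its shorter form CACNCCAC, which every longer match contains, was found in 3 (Acat2, Hmgcs1 and Insig1; 12.0%), against 7.27% and 7.12%. A match describes these letters in this window and does not show that a factor binds there. Lack of a match does not show that a gene lacks such an element, in other letters or outside the window.

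The 250 bases before the start are printed for 6 genes, 5′ to 3′ on the strand of the gene, with matches to the motifs above, on either strand, in capitals (ATTGG and CCGCCC are CCAAT and GGGCGG read on the other strand). Hmgcs1 (chr13:119690101-119690350, + strand) is shown for its sterol regulatory element core at TCACCCCAC. Idi1 (chr13:8885356-8885605, + strand), Cyp51 (chr5:4104698-4104947, - strand) and Nsdhl (chrX:72918271-72918520, + strand) are shown because their transcripts were 1.5-fold or more higher with IL-4 in both genotypes. Insig1 (chr5:28071162-28071411, + strand) holds an E-box and, at GTGGCGTG, the short core on the other strand. Ggps1 (chr13:14063489-14063738, - strand) is shown as the mevalonate member that was not higher with IL-4.
Hmgcs1: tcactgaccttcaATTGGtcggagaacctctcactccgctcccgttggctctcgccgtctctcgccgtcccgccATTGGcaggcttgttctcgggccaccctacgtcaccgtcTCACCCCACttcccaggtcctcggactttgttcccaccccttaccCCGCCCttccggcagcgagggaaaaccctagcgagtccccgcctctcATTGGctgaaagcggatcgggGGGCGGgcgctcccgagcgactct
Idi1: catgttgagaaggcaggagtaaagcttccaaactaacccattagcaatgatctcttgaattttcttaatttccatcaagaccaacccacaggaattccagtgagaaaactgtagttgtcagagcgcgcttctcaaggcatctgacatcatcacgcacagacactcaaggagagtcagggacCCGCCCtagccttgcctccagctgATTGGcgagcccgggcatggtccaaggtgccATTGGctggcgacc
Cyp51: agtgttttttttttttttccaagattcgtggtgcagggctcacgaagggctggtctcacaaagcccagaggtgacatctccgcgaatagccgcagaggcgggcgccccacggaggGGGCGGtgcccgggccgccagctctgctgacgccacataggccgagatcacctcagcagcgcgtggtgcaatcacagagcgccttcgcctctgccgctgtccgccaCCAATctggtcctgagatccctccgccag
Nsdhl: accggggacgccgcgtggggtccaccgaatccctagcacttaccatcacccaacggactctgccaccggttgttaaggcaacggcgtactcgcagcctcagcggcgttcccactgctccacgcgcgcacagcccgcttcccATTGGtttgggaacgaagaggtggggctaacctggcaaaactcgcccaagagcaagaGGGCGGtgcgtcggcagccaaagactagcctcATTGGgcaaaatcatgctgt
Insig1: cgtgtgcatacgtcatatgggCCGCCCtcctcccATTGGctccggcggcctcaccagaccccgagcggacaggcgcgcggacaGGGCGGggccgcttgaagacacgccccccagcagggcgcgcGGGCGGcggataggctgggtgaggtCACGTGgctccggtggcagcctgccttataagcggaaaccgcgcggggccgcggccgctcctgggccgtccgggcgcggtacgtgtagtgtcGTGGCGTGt
Ggps1: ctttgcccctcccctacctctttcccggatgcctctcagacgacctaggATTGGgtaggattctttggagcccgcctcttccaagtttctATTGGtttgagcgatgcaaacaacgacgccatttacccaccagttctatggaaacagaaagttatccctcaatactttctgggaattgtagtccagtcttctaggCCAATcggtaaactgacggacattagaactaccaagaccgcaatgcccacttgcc

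Counted from the start, the first base of the Hmgcs1 core lay at -137, with CCAAT boxes beginning at -237, -176 and -45. In Idi1 the CCAAT boxes began at -45 and -14 and the Sp1 box at -69. All positions count from the RefSeq start, and annotations differ. In the GENCODE annotation Idi1 begins at 8885501 and Cyp51 at 4104746, both upstream of the RefSeq start. The boxes given here for Idi1 and Cyp51 lie past those GENCODE starts. The CCAAT box of Cyp51 began at -29 and those of Ggps1 at -201, -160 and -55. Several of the printed genes were picked by their IL-4 difference, and any relation of a motif to that difference was not tested.

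**Figure D1:**
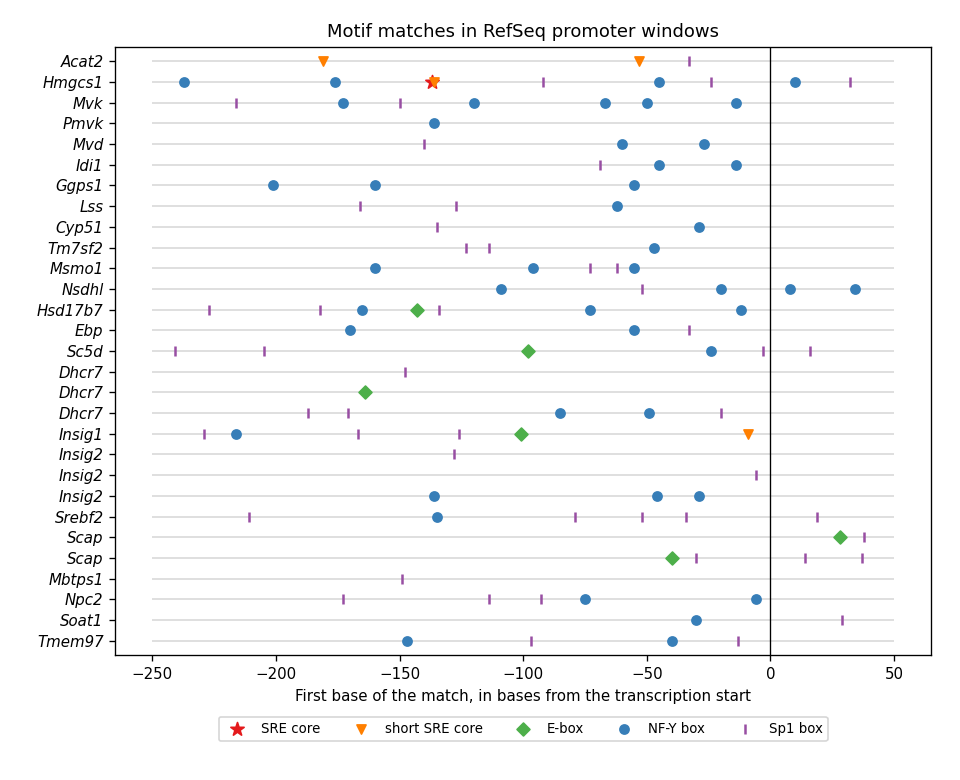
Motif matches in the RefSeq promoter windows that hold any. Each row is 1 window of a named gene, the horizontal axis gives the first base of a match in bases from the transcription start, and symbols mark the motif. Blue circles (CCAAT) appear for 21 genes and the red star (TCACNCCAC) for Hmgcs1 alone.

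At the level of single libraries, the genes spanned a wide range. Npc2, the soluble lysosomal protein that passes cholesterol to NPC1, was highest in every library, at 290 FPKM in OGT-KO at 24 h and 376 at 0 h, and at 202 in WT at 24 h and 276 at 0 h. Soat1, which esterifies cholesterol for storage, and Npc1, the membrane protein that exports cholesterol from lysosomes, followed by their mean over the libraries, at 35.9 and 31.9 FPKM. Srebf2, Hmgcs1, Ebp and Insig1 came next, with means between 18.7 and 20.8 FPKM. Those 4 means differed by less than the spread of each gene across the libraries. Lss, Hsd17b7 and Tm7sf2 were lowest, with means of 1.39, 1.32 and 0.883 FPKM. Tm7sf2 did not reach 1 FPKM in any library, and the other 29 genes did.

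**Figure D2:**
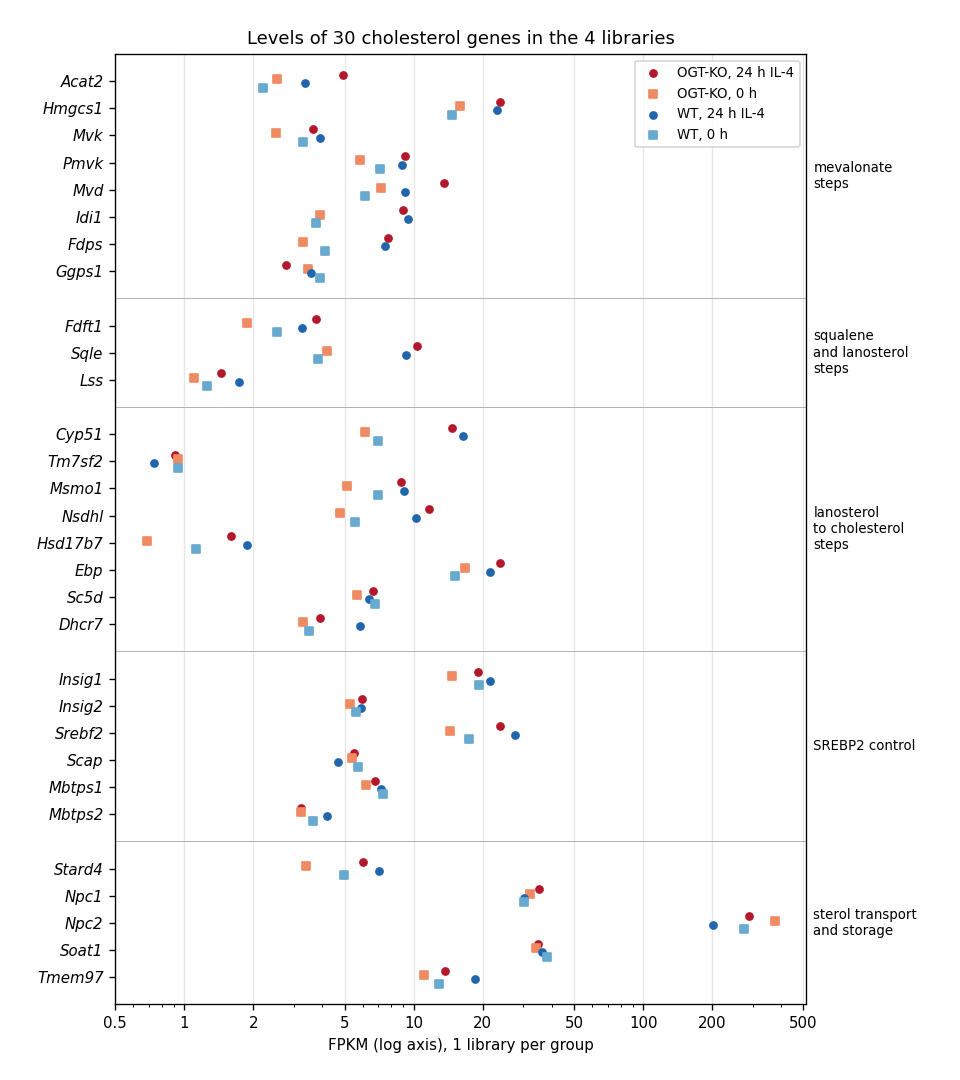
FPKM of the 30 genes (log axis) in the 4 libraries, by group of genes. Circles are 24 h of IL-4 and squares 0 h, in red for OGT-KO and blue for WT. Npc2 lies furthest to the right, between 202 and 376 FPKM, and the lowest value is that of Hsd17b7 in OGT-KO at 0 h, 0.69 FPKM.

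With IL-4, 10 of the 19 synthesis enzymes in OGT-KO and 7 of the 19 in WT were at least 1.5-fold higher than at 0 h, by up to 2.2-fold in FPKM + 1, against 13.8% of all genes in OGT-KO and 13.3% in WT. None was 1.5-fold lower. Negative differences were found for Ggps1 and Tm7sf2 in both genotypes and for Sc5d in WT. Of the 11 genes of SREBP2 control and sterol transport, 2 were 1.5-fold higher in OGT-KO and 1 in WT. Differences are given as log2((FPKM + 1)/(FPKM + 1)), 24 h minus 0 h, a scale that understates the difference of genes near 1 FPKM. In OGT-KO, 26 of the 30 genes were positive, against 52.7% of the 11577 genes that reached 1 FPKM in at least 1 of the libraries compared. In the same cells 12 were at least 1.5-fold higher (log2 0.58), against 13.8% of all genes, and 5 at least 2-fold higher, against 5.16%. In WT, 23 were positive (52.0% of 11689 genes), 8 at least 1.5-fold higher (13.3%) and 3 at least 2-fold higher (4.77%). None was 1.5-fold lower in either genotype, against 13.4% of all genes in each. The median difference of the 30 genes was 0.45 in OGT-KO and 0.31 in WT, against 0.03 and 0.02 over all genes. The 6 genes past 1.5-fold in both genotypes were Idi1, Fdps, Sqle, Cyp51, Nsdhl and Srebf2, against 9.6% of 12002 genes.

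Summed over the 19 synthesis enzymes, the level was 162 FPKM in OGT-KO at 24 h and 95.3 at 0 h, a ratio of 1.7, and 155 in WT at 24 h and 99.9 at 0 h, a ratio of 1.55. Across the 30 genes, the OGT-KO and WT differences, which share no library, had a Pearson r of 0.88 and a Spearman rho of 0.86. Over all 12002 genes r was 0.86, so the likeness of the genotypes in these genes was close to that of the whole transcriptome. In bulk RNA, fewer cells of a type and less RNA per cell cannot be told apart.

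**Figure D3:**
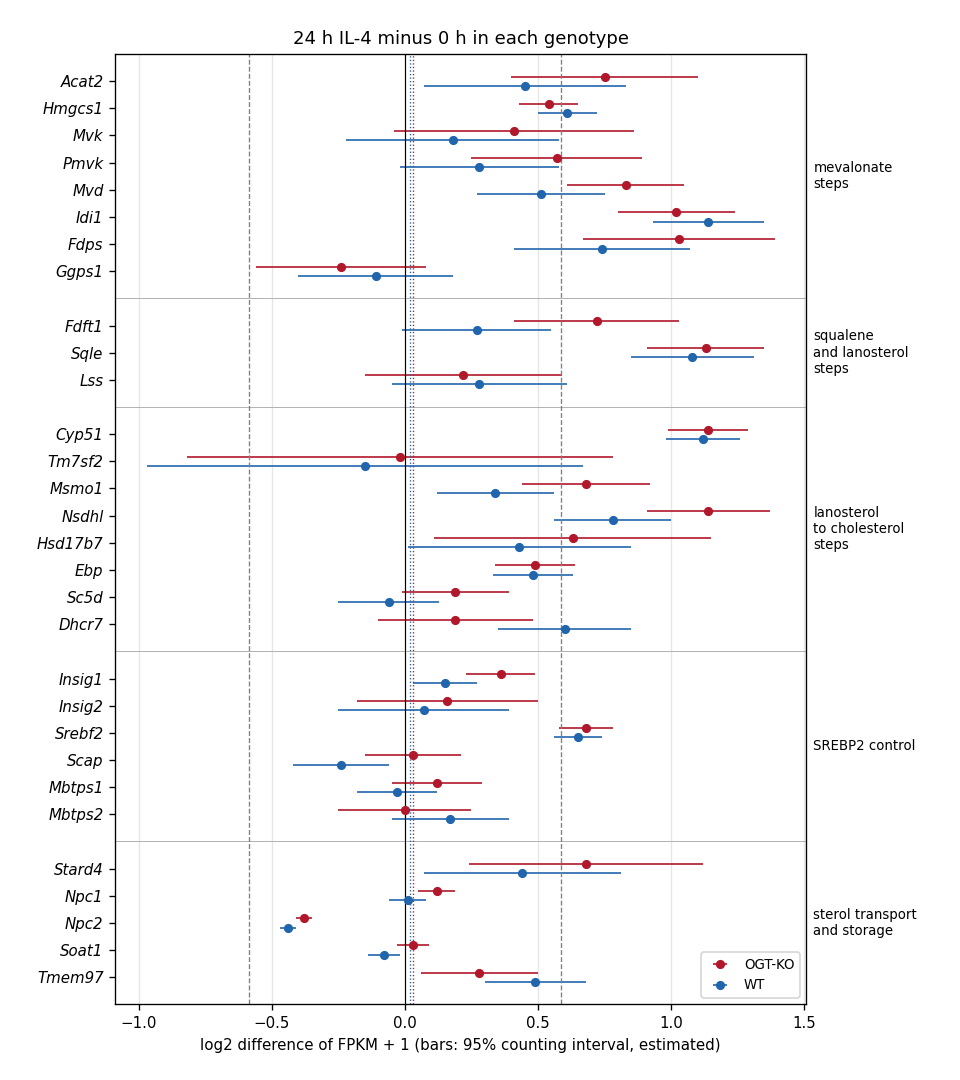
Log2 difference of FPKM + 1, 24 h of IL-4 minus 0 h, for each gene in OGT-KO (red) and WT (blue). Bars are estimated 95% counting intervals, which hold no variation between cultures. Their widths were computed without the pseudocount, so they are too wide for genes at low levels. Dotted lines are the medians of all genes, and dashed lines 1.5-fold. Idi1, Sqle and Cyp51 lie past a log2 difference of 1 in both genotypes, and Npc2 lies lowest.

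The mevalonate steps make the isoprene units from which sterols are built. Their median IL-4 difference was 0.66 in OGT-KO and 0.48 in WT. Of the 8 genes, 7 were positive in each, against 52.7% of all genes in OGT-KO and 52.0% in WT. Acat2, which joins acetyl-CoA units at the entrance, was at 4.93 FPKM in OGT-KO at 24 h and 2.53 at 0 h, and at 3.36 in WT at 24 h and 2.2 at 0 h. It was past 1.5-fold in OGT-KO (0.75) and not in WT (0.45). Hmgcs1, the synthase that forms HMG-CoA, was at 23.72 FPKM in OGT-KO at 24 h and 16.0 at 0 h, and at 23.03 in WT at 24 h and 14.73 at 0 h. Its differences of 0.54 in OGT-KO and 0.61 in WT are nearly equal, although only the WT one is past 1.5-fold. Mvk, mevalonate kinase, was at 3.65 FPKM in OGT-KO at 24 h and 2.51 at 0 h, and at 3.89 in WT at 24 h and 3.3 at 0 h. Pmvk, which adds the next phosphate, was at 9.13 FPKM in OGT-KO at 24 h and 5.83 at 0 h, and at 8.9 in WT at 24 h and 7.14 at 0 h. Neither kinase passed 1.5-fold in either genotype.

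Mvd, the decarboxylase that yields isopentenyl diphosphate, was at 13.6 FPKM in OGT-KO at 24 h and 7.23 at 0 h, and at 9.19 in WT at 24 h and 6.14 at 0 h. The OGT-KO library at 24 h stood above the other 3, and the difference was 0.83 in OGT-KO and 0.51 in WT. Idi1, the isomerase that makes dimethylallyl diphosphate, was at 8.95 FPKM in OGT-KO at 24 h and 3.91 at 0 h, and at 9.45 in WT at 24 h and 3.75 at 0 h. Both 24 h libraries stood apart from both 0 h libraries, and the difference was 1.02 in OGT-KO and 1.14 in WT, the largest of the 30 genes in WT. Its near copy Idi2 was at 0 in every library. Fdps, which makes farnesyl diphosphate, was at 7.75 FPKM in OGT-KO at 24 h and 3.29 at 0 h, and at 7.49 in WT at 24 h and 4.1 at 0 h. Its difference was 1.03 in OGT-KO and 0.74 in WT, and 26.7% of its exon bases are shared on the same strand with Gm43738, which was at 0 in every library.

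Ggps1 turns farnesyl diphosphate toward geranylgeranyl groups for protein prenylation, away from sterols. It was at 2.78 FPKM in OGT-KO at 24 h and 3.46 at 0 h, and at 3.56 in WT at 24 h and 3.91 at 0 h. It was the only mevalonate gene with a negative difference, at -0.24 in OGT-KO and -0.11 in WT.

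The squalene and lanosterol steps commit the pathway to sterols. All 3 genes were positive in both genotypes, against 52.7% of all genes in OGT-KO and 52.0% in WT. Their medians were 0.72 in OGT-KO and 0.28 in WT. Fdft1, squalene synthase, was at 3.76 FPKM in OGT-KO at 24 h and 1.88 at 0 h, and at 3.27 in WT at 24 h and 2.54 at 0 h. Its difference of 0.72 in OGT-KO against 0.27 in WT was the largest gap between the genotypes among the 30 genes. For Fdft1, 18.3% of the exon bases overlap, on the other strand, the cathepsin gene Ctsb, measured at 1894 to 2294 FPKM, and it is unknown whether counting used strand. Sqle, the epoxidase that oxidises squalene, was at 10.38 FPKM in OGT-KO at 24 h and 4.19 at 0 h, and at 9.22 in WT at 24 h and 3.82 at 0 h. Both 24 h libraries were more than 2-fold above both 0 h libraries in FPKM, with differences of 1.13 in OGT-KO and 1.08 in WT. Lss, which closes the rings to lanosterol, was at 1.45 FPKM in OGT-KO at 24 h and 1.1 at 0 h, and at 1.74 in WT at 24 h and 1.26 at 0 h. At these low levels its differences were 0.22 in OGT-KO and 0.28 in WT.

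The steps from lanosterol to cholesterol had a median difference of 0.56 in OGT-KO and 0.45 in WT. Cyp51, the demethylase that acts on lanosterol, was at 14.69 FPKM in OGT-KO at 24 h and 6.12 at 0 h, and at 16.33 in WT at 24 h and 6.98 at 0 h. Its differences of 1.14 and 1.12 were nearly equal and lay above 96.0% of genes in OGT-KO and 96.3% in WT. Nsdhl, a dehydrogenase of C4 demethylation, was at 11.69 FPKM in OGT-KO at 24 h and 4.77 at 0 h, and at 10.26 in WT at 24 h and 5.56 at 0 h. It was past 2-fold in OGT-KO (1.14) and at 0.78 in WT. Msmo1, the oxidase of the same demethylation, was at 8.79 FPKM in OGT-KO at 24 h and 5.12 at 0 h, and at 9.06 in WT at 24 h and 6.97 at 0 h. Its difference was 0.68 in OGT-KO and 0.34 in WT. Hsd17b7, the ketoreductase that completes it, was at 1.6 FPKM in OGT-KO at 24 h and 0.69 at 0 h, and at 1.87 in WT at 24 h and 1.13 at 0 h. These low levels gave differences of 0.63 in OGT-KO and 0.43 in WT.

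Ebp, the sterol isomerase, was at 23.82 FPKM in OGT-KO at 24 h and 16.73 at 0 h, and at 21.57 in WT at 24 h and 15.15 at 0 h, with differences of 0.49 and 0.48. Sc5d, a desaturase, was at 6.62 FPKM in OGT-KO at 24 h and 5.67 at 0 h, and at 6.41 in WT at 24 h and 6.75 at 0 h. The 4 Sc5d values lie close together, with differences of 0.19 in OGT-KO and -0.06 in WT. Dhcr7, the reductase that yields cholesterol itself in a branch of the pathway, was at 3.89 FPKM in OGT-KO at 24 h and 3.3 at 0 h, and at 5.83 in WT at 24 h and 3.51 at 0 h. The WT library at 24 h stood above the other 3, and Dhcr7 was past 1.5-fold in WT (0.6) and at 0.19 in OGT-KO. Tm7sf2, a sterol reductase, was at 0.91 FPKM in OGT-KO at 24 h and 0.94 at 0 h, and at 0.74 in WT at 24 h and 0.94 at 0 h. Its level is too low for a difference to be read. On the same strand, 12.1% of its exon bases are shared with Vps51, which was at 7.63 to 8.37 FPKM.

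Among the genes of SREBP2 control, only Srebf2 was past 1.5-fold, in both genotypes, and the group medians were 0.14 in OGT-KO and 0.11 in WT. It was at 23.82 FPKM in OGT-KO at 24 h and 14.47 at 0 h, and at 27.74 in WT at 24 h and 17.37 at 0 h. The difference was 0.68 in OGT-KO and 0.65 in WT, above 89.3% and 88.7% of genes, and the 24 h libraries did not overlap the 0 h ones. Insig1, the INSIG whose gene is itself a known SREBP target, was at 19.16 FPKM in OGT-KO at 24 h and 14.73 at 0 h, and at 21.54 in WT at 24 h and 19.26 at 0 h. Its differences of 0.36 and 0.15 were well under those of Idi1, Sqle and Cyp51. Insig2, its relative, was at 5.98 FPKM in OGT-KO at 24 h and 5.26 at 0 h, and at 5.92 in WT at 24 h and 5.59 at 0 h. Its 4 values lie within a narrow range.

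Scap, the escort of SREBP2, was at 5.52 FPKM in OGT-KO at 24 h and 5.41 at 0 h, and at 4.7 in WT at 24 h and 5.74 at 0 h. The WT library at 24 h was the lowest of the 4, with a difference of -0.24 in WT and 0.03 in OGT-KO. Mbtps1, the site 1 protease, was at 6.81 FPKM in OGT-KO at 24 h and 6.19 at 0 h, and at 7.17 in WT at 24 h and 7.35 at 0 h. Mbtps2, the site 2 protease, was at 3.22 FPKM in OGT-KO at both times, and at 4.19 in WT at 24 h and 3.63 at 0 h. The protease differences lay between -0.03 and 0.17. For Mbtps2, 28.4% of the exon bases are shared on the same strand with Yy2.

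Transport and storage genes had medians of 0.12 in OGT-KO and 0.01 in WT. Stard4, a cytosolic sterol carrier, was at 6.04 FPKM in OGT-KO at 24 h and 3.4 at 0 h, and at 7.09 in WT at 24 h and 4.98 at 0 h. It was the only gene of this group past 1.5-fold, in OGT-KO (0.68; WT 0.44). Tmem97, a membrane protein that binds NPC1, was at 13.71 FPKM in OGT-KO at 24 h and 11.14 at 0 h, and at 18.59 in WT at 24 h and 12.95 at 0 h. The WT library at 24 h was again the highest, with differences of 0.28 in OGT-KO and 0.49 in WT. Npc1 was at 35.02 FPKM in OGT-KO at 24 h and 32.05 at 0 h, and at 30.36 in WT at 24 h and 30.16 at 0 h. Soat1 was at 34.94 FPKM in OGT-KO at 24 h and 34.15 at 0 h, and at 36.17 in WT at 24 h and 38.17 at 0 h. Both genes stayed within a log2 difference of 0.12 of their 0 h level. Npc2, given above, went the other way from the enzymes, with -0.38 in OGT-KO and -0.44 in WT.

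These counts move with the scale. With a pseudocount of 5 in place of 1, 6 genes were 1.5-fold higher in OGT-KO and 3 in WT, and none 2-fold. With libraries scaled by their median ratio, 24 genes were positive and 3 past 2-fold in OGT-KO, and 22 positive and 6 past 1.5-fold in WT. The shares of all genes under these settings are not given, and those above hold for a pseudocount of 1 without scaling. Whether the excess over all genes changed was therefore not described.

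Other lists differed between the same libraries. Summed neutrophil markers were at 730 FPKM in OGT-KO at 24 h and 2180 at 0 h, and at 1090 in WT at 24 h and 3370 at 0 h, with 1 of 11 markers under 1 FPKM in every library and none at 0. Monocyte markers summed to 21.7 FPKM in OGT-KO at 24 h and 44.6 at 0 h, and to 27.2 in WT at 24 h and 46.8 at 0 h. Fibroblast, T and B cell, and dendritic cell markers each summed to 15.0 FPKM or less in every library. Cell cycle genes summed to 383 FPKM in OGT-KO at 24 h and 149 at 0 h, and to 386 in WT at 24 h and 172 at 0 h. Unfolded protein response genes summed to 2150 FPKM in OGT-KO at 24 h and 1000 at 0 h, and to 2260 in WT at 24 h and 1020 at 0 h. Of 24 cell cycle genes, 12 in OGT-KO and 10 in WT were 1.5-fold higher with IL-4 and 0 lower. Of 20 unfolded protein response genes, 13 in OGT-KO and 12 in WT were higher and 1 lower in each. The cholesterol genes, with 12 of 30 in OGT-KO and 8 in WT, were thus not alone in being higher. Over all genes 13.8% and 13.3% were higher. The part of these lists in the cholesterol gene differences was not tested.

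Medians of neighbouring pathways lay on both sides of 0. Of the SREBP1 lipogenic genes at 1 FPKM or more, 5 of 12 were 1.5-fold higher and none lower in OGT-KO, and 4 of 13 were higher and 1 lower in WT. Over all genes the shares were 13.8% higher and 13.4% lower in OGT-KO, and 13.3% higher and 13.4% lower in WT. Scd2, a desaturase, was at 2.35 in OGT-KO and 2.41 in WT, and the lower gene, Mid1ip1, at 0.15 in OGT-KO and -0.83 in WT. Of 10 LXR efflux genes, 1 was 1.5-fold higher and 4 lower in OGT-KO, and 1 higher and 5 lower in WT. The higher one was the exporter Abcg1, at 1.09 in OGT-KO and 1.03 in WT. The 13 other sterol transport genes had medians of -0.18 in OGT-KO and -0.13 in WT, and the 13 genes of isoprenoid use 0.16 and 0.13.

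**Figure D4:**
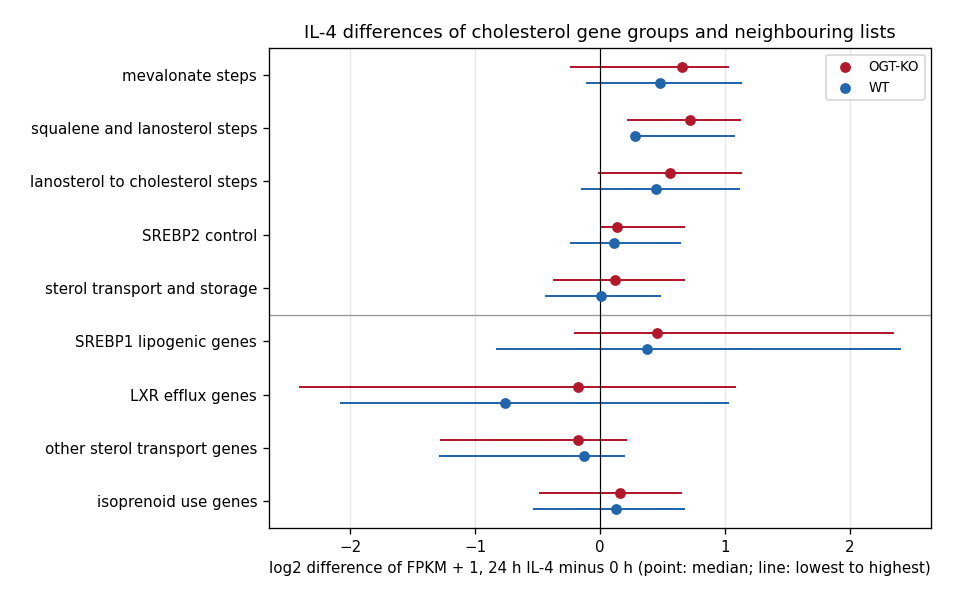
IL-4 differences (log2 of FPKM + 1, 24 h minus 0 h) of the 5 groups of cholesterol genes and of 4 neighbouring lists, in OGT-KO (red) and WT (blue). Points are medians and lines run from the lowest to the highest gene. The synthesis groups have medians of 0.28 to 0.72, and the LXR efflux genes medians of -0.18 in OGT-KO and -0.76 in WT.

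Whether the IL-4 difference depended on genotype was described by the OGT-KO difference minus the WT difference. It was positive for 23 of the 30 genes, against 50.9% of 12002 genes, with a median of 0.12 against 0.0. No gene passed 1.5-fold in either direction, against 3.82% higher and 3.12% lower over all genes. The largest values were 0.45 for Fdft1, 0.36 for Nsdhl, 0.34 for Msmo1 and 0.31 for Mvd on the positive side. On the negative side they were -0.41 for Dhcr7, -0.21 for Tmem97 and -0.17 for Mbtps2. The 3 genes past 2-fold in both genotypes were at 0.02 (Cyp51), 0.05 (Sqle) and -0.12 (Idi1). With 1 library per group, these gaps have no culture error to be set against.

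In OGT-KO against WT, none of the 30 genes passed 1.5-fold at either time. After 24 h of IL-4, 15 genes were positive and 15 negative (41.4% of 11302 genes positive), and 2.91% of all genes were 1.5-fold higher and 2.48% lower. The median was -0.01, against -0.05 over all genes, and became 0.04 with median-ratio scaling. Most apart were Mvd (0.52), Npc2 (0.51) and Acat2 (0.44) on the higher side, and Dhcr7 (-0.48) and Tmem97 (-0.41) on the lower. At 0 h, 22 genes were negative, against 59.5% of 11480 genes, and 2.78% of all genes were 1.5-fold higher and 3.34% lower. The median was -0.15, against -0.05 over all genes. For each gene, the OGT-KO response minus the WT response equals the genotype difference at 24 h minus that at 0 h. The mostly negative values at 0 h and the mostly positive response differences are therefore not separate results. Stard4 (-0.44), Msmo1 (-0.38), Insig1 (-0.36) and Hsd17b7 (-0.34) were lowest, and Npc2 (0.45) was highest.

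The 6 genes of SREBP2 control were all lower in OGT-KO than in WT at 0 h, and under both other scalings. Over all genes without scaling 59.5% were lower, with a median of -0.05. Median-ratio scaling raised that median by 0.063, about the size of the Insig2 and Scap differences. Values ran from -0.36 for Insig1 to -0.07 for Insig2 and Scap. Insig2 and Scap were near the unscaled median of all genes and within their counting half-widths of 0.34 and 0.18. Mbtps2 was also within its half-width, and Insig1, Srebf2 and Mbtps1 were past theirs. At 24 h, 2 of the 6 were positive, Scap at 0.2 and Insig2 at 0.01, against 41.4% of all genes. Npc2 was higher in OGT-KO at both times, and the 4 libraries ordered OGT-KO at 0 h, OGT-KO at 24 h, WT at 0 h and WT at 24 h. Across the 30 genes, the differences at 24 h and at 0 h, which share no library, had a Pearson r of 0.62 and a Spearman rho of 0.47, against an r of 0.35 over all genes, and 21 had the same sign at both times, against 68.0% of all genes. The 19 enzymes summed to 1.04 times the WT level at 24 h and to 0.95 times at 0 h.

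**Figure D5:**
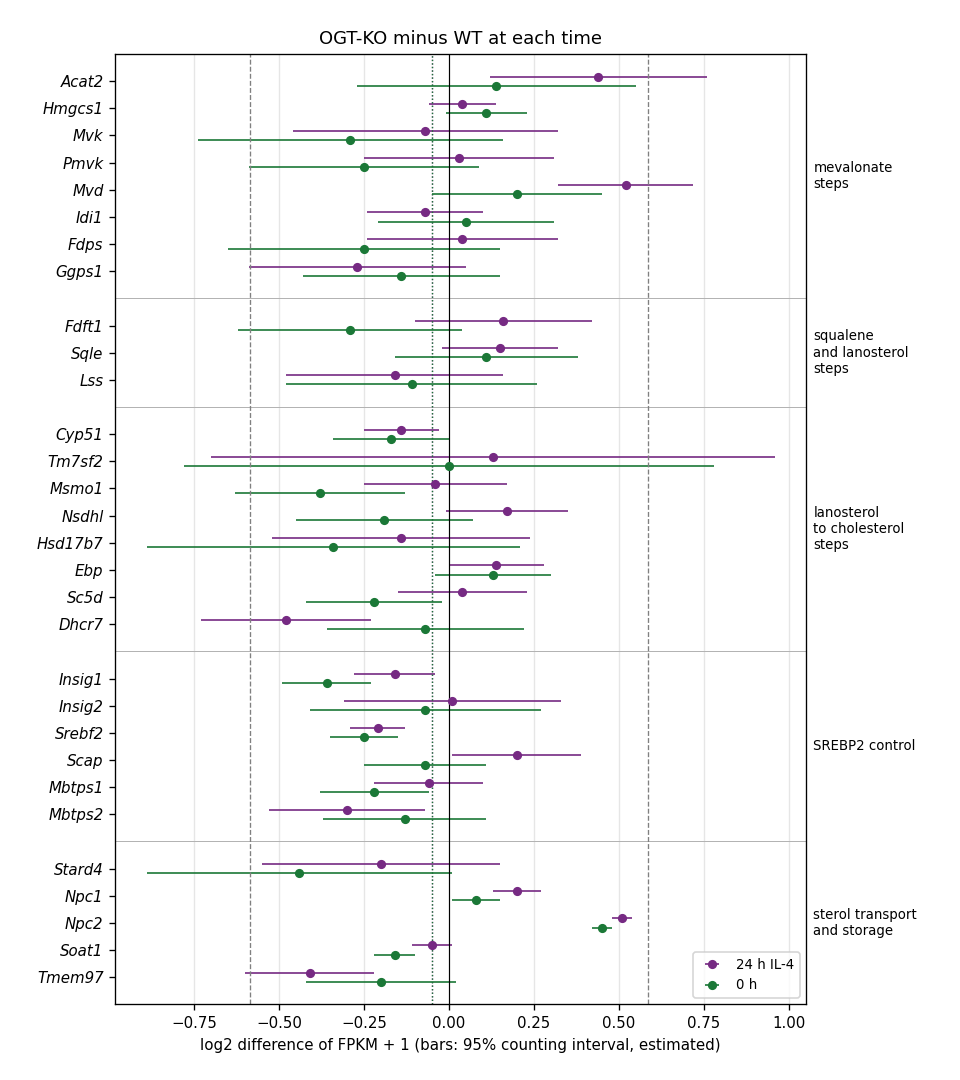
Log2 difference of FPKM + 1, OGT-KO minus WT, for each gene after 24 h of IL-4 (purple) and at 0 h (green). Bars are estimated 95% counting intervals without culture variation. Their widths were computed without the pseudocount, so they are too wide for genes at low levels. Dotted lines are the medians of all genes, and dashed lines 1.5-fold. No gene lies past 1.5-fold, and Npc2 and Mvd lie furthest to the right at 24 h, at 0.51 and 0.52.

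Counting noise alone was estimated from the fragments behind each value, between 21 and 24938 for a gene in a library. Differences past their 95% counting interval numbered 19 of 30 for IL-4 in OGT-KO (18 higher), 19 in WT (16 higher), 11 for OGT-KO against WT at 24 h (5 higher) and 8 at 0 h (2 higher). For the OGT-KO difference minus the WT difference the number was 9 (8 higher). Intervals were computed for the 30 genes alone, so no share of all genes past them can be set beside these numbers. Passing an interval also depends on the number of fragments. For IL-4 in OGT-KO the half-width was 0.03 for Npc2 and 0.8 for Tm7sf2. These intervals cover counting error only, and the transcript lengths behind them were settled after values had been seen. With the lengths tried first, the number for IL-4 in OGT-KO was the same and the other numbers were lower. The interval widths were computed for the ratio of FPKM without the pseudocount, while the differences include it. The intervals are therefore too wide for genes at low levels, and the numbers past them may be too low. Exons of 11 of the 30 genes overlap those of another annotated gene, so their levels are less certain. The share of such genes over the whole table was not computed, and partner levels ranged from 0 FPKM to those of Ctsb.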

How the data were processed

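RNA-seq libraries were made from 4 samples of bone marrow-derived macrophages, 1 per group. The values are FPKM as deposited by the authors, in 1 table of 52550 genes; STAR, StringTie and GRCm38 (mm10) are named, without versions or settings, in the submitters' processing notes. The table names no unit, and FPKM was read from column totals that differ between libraries. The annotation release the authors used, the use of strand in counting and the raw counts are unknown here. Symbols and positions came from GENCODE M21 and promoter windows from RefSeq (GRCm38.p6), which matched 30 and 25 of the 30 genes.

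Differences were computed with a pseudocount of 1 in Python 3.11.15 with pandas 2.3.3 and numpy 2.4.6, and checked on simulated data. All 30 genes were counted with no filter; the background was every gene that reached 1 FPKM in either library compared, or in any library for the difference of responses. Calls were of size alone, 1.5-fold and 2-fold, since 1 library per group allows no test. Depth was estimated from genes with 1 exon of at least 1000 bases. The commonest product of FPKM and length in kb, within a fixed window of 0.04 to 0.055, was taken as the value of 1 fragment. This gives 40.2 to 43.7 fragments for a 2 kb transcript at 1 FPKM. The estimate could not fall outside that window, and all counting intervals rest on it. Members, groups and lists were chosen with earlier results of these data known. All 30 members are named with their values, as is Ogt; other genes named are among the larger differences of their list, and not every gene that the rule for naming allows was named. A list of further cholesterol genes is not reported here.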

Additional observations from a re-analysis of the deposited data

Results flagged for a closer look

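Opposite signs of the same comparison put 14 results here. None was tested, none had both differences past the estimated counting interval, and with 1 library per side values near 0 fall on opposite sides easily. For 24 h of IL-4 minus 0 h, 5 genes differed in sign between the genotypes: Sc5d (0.19 in OGT-KO, -0.06 in WT), Scap (0.03 and -0.24), Mbtps1 (0.12 and -0.03), Mbtps2 (-0.0 and 0.17) and Soat1 (0.03 and -0.08). For OGT-KO minus WT, 9 genes differed in sign between the times. These were Pmvk (0.03 at 24 h, -0.25 at 0 h), Idi1 (-0.07 and 0.05), Fdps (0.04 and -0.25), Fdft1 (0.16 and -0.29), Tm7sf2 (0.13 and -0.0), Nsdhl (0.17 and -0.19), Sc5d (0.04 and -0.22), Insig2 (0.01 and -0.07) and Scap (0.2 and -0.07).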

How the results depend on the processing

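The alternatives tried were pseudocounts (0.1, 5), filters (above 0, 1 and 5 FPKM), scalings and promoter windows. The filter at 1 FPKM applied to the members was added after the data had been seen. No sign of a called value reversed. For a gene's difference between a pair of libraries, only the scalings could have reversed it. A pseudocount or filter leaves that sign unchanged, and motif shares have no sign. In OGT-KO against WT no gene was called, so no gene could reverse there. Medians were judged to have moved when the shift passed the median counting half-width of the members, a rule of this re-analysis. Counts were judged to have moved when they changed by more than 1.5-fold, or to or from 0. Of the counts, medians and motif shares that answer a comparison, 391 alternative values held and 14 moved. Part of those that held could not have moved. All 30 genes were above 0 in every library, so the filter above 0 left their values as they were. The filter at 1 FPKM removed only Tm7sf2. The tally is therefore no measure of how firm the results are. Under a pseudocount of 0.1, 1 gene (Hsd17b7, -0.65) was 1.5-fold lower in OGT-KO at 0 h, 1 gene (Fdft1, 0.61) was 1.5-fold higher in the OGT-KO minus WT response, and the median IL-4 difference of the squalene and lanosterol steps in OGT-KO was 0.96. Under a pseudocount of 5, which shrinks all differences by construction, 6 genes in OGT-KO and 3 in WT were 1.5-fold higher with IL-4. In OGT-KO the medians were then 0.43 for the mevalonate steps, 0.35 for squalene and lanosterol and 0.31 for lanosterol to cholesterol, and in WT 0.16 for the lipogenic genes and -0.48 for the LXR efflux genes. A filter at 5 FPKM left 1 squalene gene, Sqle, at 1.13 in OGT-KO and 1.08 in WT, and gave medians of 0.82 for lipogenic genes in OGT-KO and -0.49 for LXR efflux genes in WT, over fewer genes. Scaling by the median ratio left 3 genes 2-fold higher in OGT-KO. The shares of all genes past these sizes under the alternatives are not given. No paired analysis was possible because each group holds 1 library. Of the 30 genes, 6 had under 100 estimated fragments in some library, and single-library counting error of a log2 difference ran up to 0.426 (median 0.114). Variation between cultures, which would need replicates, is unknown.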
